A study of Mus musculus with 10 samples.

Results

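The 10 genes described here encode the proteins that carry calcium across the cardiac muscle cell membrane and the kinase that senses it. They are the L-type channel subunit genes Cacna1c, Cacnb2 and Cacna2d1, the T-type channel genes Cacna1g and Cacna1h, the sodium-calcium exchanger gene Slc8a1, the plasma membrane calcium pump gene Atp2b1 and the CaMKII genes Camk2d, Camk2b and Camk2g. They were chosen by role and matched by symbol in the deposited table. All 10 were found among its 45706 genes, and all 10 passed the filter on low values, which left 12350 genes for testing. The RNA came from left ventricular tissue of mice that had undergone TAC, transverse aortic constriction, an operation that tightens the aortic arch and so makes the ventricle pump against raised pressure. Of the 10 libraries, 5 were from TAC hearts given placebo, whose treatment label reads vehicle, and 5 were from TAC hearts given osimertinib, a kinase inhibitor aimed at mutant EGFR and used against lung cancer. Both groups had the operation, so nothing here describes an unloaded heart or the drug in one. Strain, genotype, sex, age, dose and time are not stated in the labels used here, nor whether each sample of a group came from a separate animal, and the p-values then measure only the spread between these samples. The study set out to learn what underlies the cardiac toxicity of the drug.

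In a ventricular muscle cell, calcium enters through L-type channels at each beat and triggers a larger release from the sarcoplasmic reticulum. The pore of the channel is formed by its alpha-1 subunit, while the beta and alpha-2/delta subunits bring it to the membrane and set its gating. T-type channels open at more negative voltages and belong chiefly to the fetal heart, the atria and the pacemaker tissue, returning in part in hypertrophied ventricles. The exchanger removes most of the calcium that entered, and the plasma membrane pump a small remainder. CaMKII, switched on by calcium-bound calmodulin, phosphorylates the channel, the ryanodine receptor and class IIa histone deacetylases, and its delta form predominates in the heart.

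The deposited values are CPM, each gene's share of its library's reads scaled to a fixed total. Their spacing gave depths of 15863265 to 21309296 reads. Mitochondrially encoded genes took 63.4% of the reads in placebo library 5, which stood apart, and 31.7% to 48.0% in the other 9 libraries. Levels below are therefore rescaled CPM, the deposited CPM divided by each library's median ratio to an average library, a factor of 0.455 for placebo library 5 and of 0.926 to 1.34 for the others. The median log2 fold change of all tested genes was 0.27 in the deposited CPM and 0.01 after rescaling. A fold change is osimertinib over placebo on the log2(rescaled CPM + 0.5) scale, with its standard error (SE), and a gene is called at an adjusted p under 0.05 (limma, Benjamini-Hochberg over all tested genes). After rescaling 20.8% of all tested genes were called, 10.4% higher and 10.5% lower in osimertinib, and in the deposited CPM 6.74% were called, 6.62% higher and 0.13% lower. The cardiomyocyte genes Tnnt2, Actn2, Myh6 and Ttn were abundant in every library, as the tissue label requires. Atrial muscle transcripts were high as well in 6 libraries, against a left ventricular label. The atrial light chain gene Myl7 lay between 55.5 and 1149 rescaled CPM in placebo libraries 1, 2 and 5 and osimertinib libraries 1, 2 and 4, and at 0.862 or less in the other 4.

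Of the 10 genes, 2 were called after rescaling, both lower in osimertinib, Cacna1c and Camk2b. A count of 2 in 10 is near the 20.8% called among all tested genes. No gene of the 10 was called in the deposited CPM. Their median log2 fold change was 0.02 after rescaling, beside 0.01 over all tested genes, with 5 above and 5 below 0. The groups did not overlap for 1 gene, Cacna1c, which was lower. Over all tested genes, the groups lay apart for 6.82% in the lower and 5.72% in the higher direction. In the deposited CPM, where these shares were 0.081% and 5.33%, all 10 genes overlapped.

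**Figure D1:**
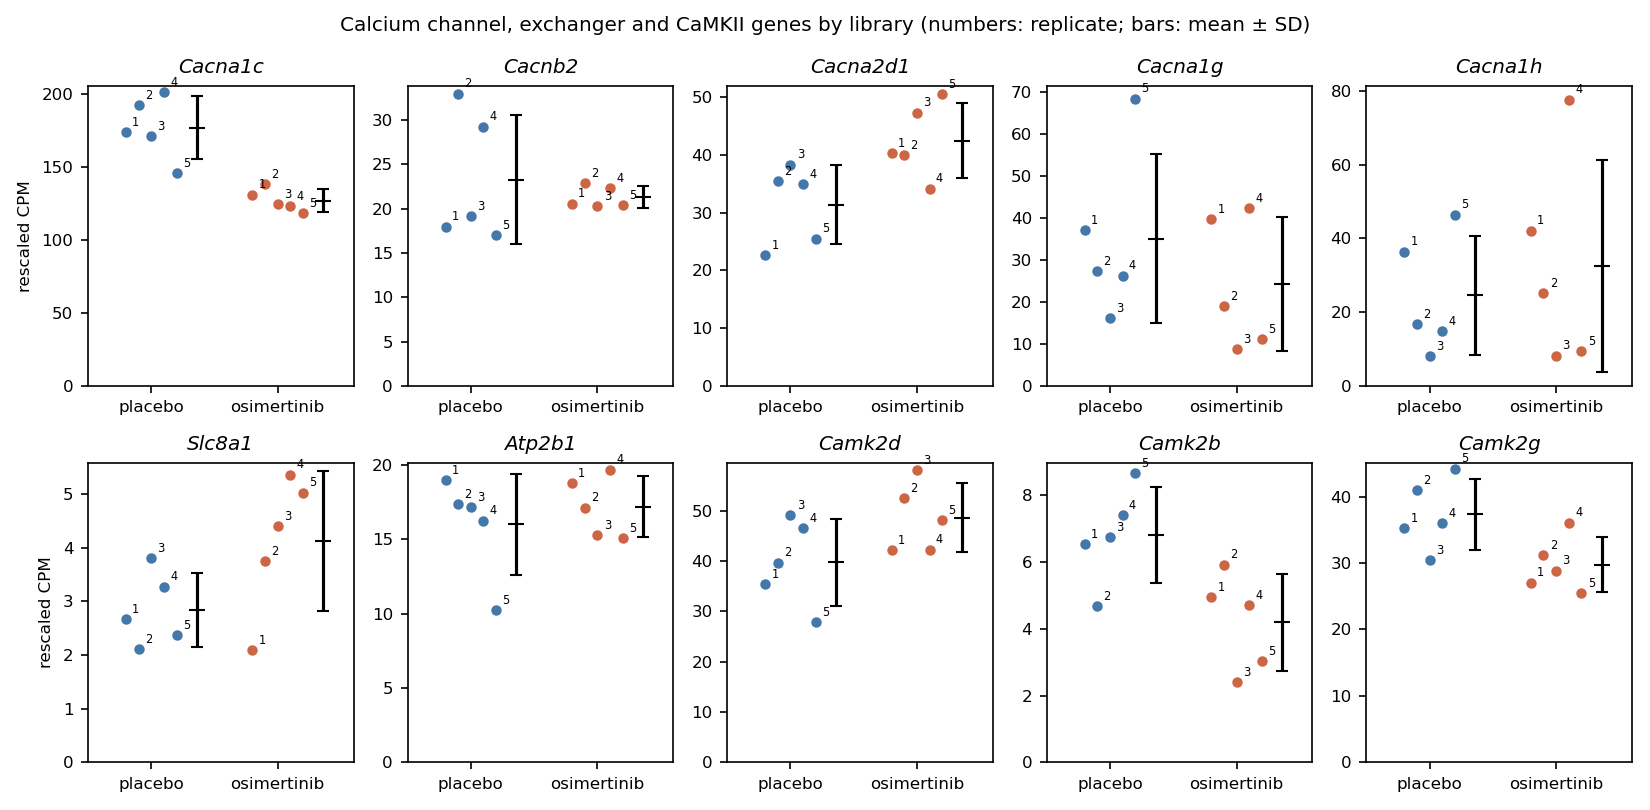
Rescaled CPM of each of the 10 genes in every library, with the replicate number beside each point and the mean ± SD of each group as a bar. For Cacna1c the 5 osimertinib libraries lie between 118 and 138, all under the placebo libraries at 146 to 201, while for Cacna1h the groups start at 8.16 and 8.20 and overlap, with osimertinib library 4 alone above the placebo range.

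Cacna1c encodes the pore of the cardiac L-type channel (chromosome 6, 118587240 to 119196418, minus strand, GRCm38). It stood at 173, 192, 171, 201 and 146 rescaled CPM in placebo libraries 1 to 5 and at 131, 138, 124, 123 and 118 in osimertinib libraries 1 to 5. Every osimertinib library was below every placebo library, and the lowest placebo value was that of library 5. The group means were 177 ± 21.4 (SD, n = 5) and 127 ± 7.62 (SD, n = 5). This gave a log2 fold change of -0.47 ± 0.11 (limma adjusted p = 0.0208). In the deposited CPM, where placebo library 5 is low for most nuclear genes, the groups overlapped and the fold change was -0.19 ± 0.33 (adjusted p = 0.802). In CPM without mitochondrial and haemoglobin genes, with all libraries kept, it was -0.45 ± 0.21 and was not called either (limma adjusted p = 0.199). Without placebo library 5 it was -0.54 (adjusted p = 0.0168) after rescaling and -0.50 (adjusted p = 0.0779) in the deposited CPM. Of the rescaled fits without 1 library, 3 lost the call, those lacking placebo library 2 (adjusted p = 0.0536), osimertinib library 3 (0.0594) and osimertinib library 5 (0.0554).

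Markers of other cells were followed beside this fall, among them smooth muscle, which also uses the L-type channel. Endothelial markers were lower as well after rescaling, with 3 of 8 called lower (Fabp4, Egfl7 and Tie1), beside 10.5% of all tested genes, and none above 0. Their summed level was 2191 to 3096 rescaled CPM in placebo against 1706 to 2201 in osimertinib. In the deposited CPM none of the 8 was called, and their median log2 fold change was 0.06. None of the 8 smooth muscle and pericyte markers was called, and their summed level lay between 445 and 697 rescaled CPM in placebo and between 541 and 888 in osimertinib. The summed level of 10 cardiomyocyte markers lay between 14515 and 33624 in placebo and between 27448 and 46350 in osimertinib. Of these 10, 3 were called higher (Atp2a2, Actn2 and Pln), beside 10.4% of all tested genes, and none lower. In the deposited CPM 6 were called higher, beside 6.62% of all tested genes. The long sarcomere gene Ttn was at 0.04 ± 0.16. In bulk tissue fewer cells of a type and less RNA per cell cannot be told apart. In the 4 libraries nearly free of Myl7, Cacna1c was at 171 and 201 in placebo libraries 3 and 4. It was at 124 and 118 in osimertinib libraries 3 and 5. Since the groups did not overlap over all 10 libraries, any choice of libraries keeps this order, and no conclusion is drawn from it. The share of these cell types in the fall of Cacna1c was not tested.

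Cacna2d1, the alpha-2/delta subunit (chromosome 5, 15934691 to 16374511), lay the other way. Its values were 22.7, 35.5, 38.4, 35.0 and 25.5 rescaled CPM in placebo and 40.3, 40.0, 47.4, 34.2 and 50.6 in osimertinib. Only osimertinib library 4 fell within the placebo range, and 5 of 5 osimertinib libraries were above the placebo mean. The log2 fold change of 0.44 ± 0.16 (limma adjusted p = 0.067) did not pass. It passed without placebo library 3 (adjusted p = 0.0423) or osimertinib library 4 (0.047).

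Cacnb2, the main beta subunit of heart muscle (chromosome 2, 14603088 to 14987908), was at 17.95, 33.0, 19.2, 29.2 and 17.0 rescaled CPM in placebo and at 20.6, 22.9, 20.3, 22.3 and 20.4 in osimertinib. The osimertinib values lay inside the placebo range and were closer together, with a coefficient of variation of 5.76% against 31.4%. The log2 fold change was -0.08 ± 0.18 (limma adjusted p = 0.779) after rescaling and 0.20 ± 0.33 in the deposited CPM, so its direction was not determined.

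Ratios between 2 genes of the same library do not depend on the scaling between libraries and show unequal change only. Differences in 8 such log2 ratios were tested with the exact permutation test (two-sided, smallest possible p 0.00794), adjusted over the 8, several of which share a gene. With group medians in place of means none of the 8 passed (adjusted p of 0.0762 or more). The 8 were chosen with earlier results of these data known. Ratios of other gene pairs were not tested, so how often a ratio separates the groups in these data is not known. The log2 ratio of Cacna2d1 to Cacna1c was -2.94, -2.44, -2.16, -2.52 and -2.52 in placebo and -1.70, -1.79, -1.39, -1.85 and -1.23 in osimertinib. The groups did not overlap, and the ratio was 1.9-fold higher in osimertinib (exact p = 0.00794, adjusted p = 0.0317). The exact p stayed at its smallest possible value in each of 10 tests without 1 library, although the adjusted p, which depends on the other ratios too, then ran up to 0.0635. The ratio of Cacnb2 to Cacna1c rose from -2.97 ± 0.30 (SD, n = 5) to -2.57 ± 0.08 (exact p = 0.0317, adjusted p = 0.0423), with placebo library 2 inside the osimertinib range. Without osimertinib library 5 its adjusted p was 0.0952, the highest of the tests without 1 library, and it passed in 1 of those 10.

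**Figure D2:**
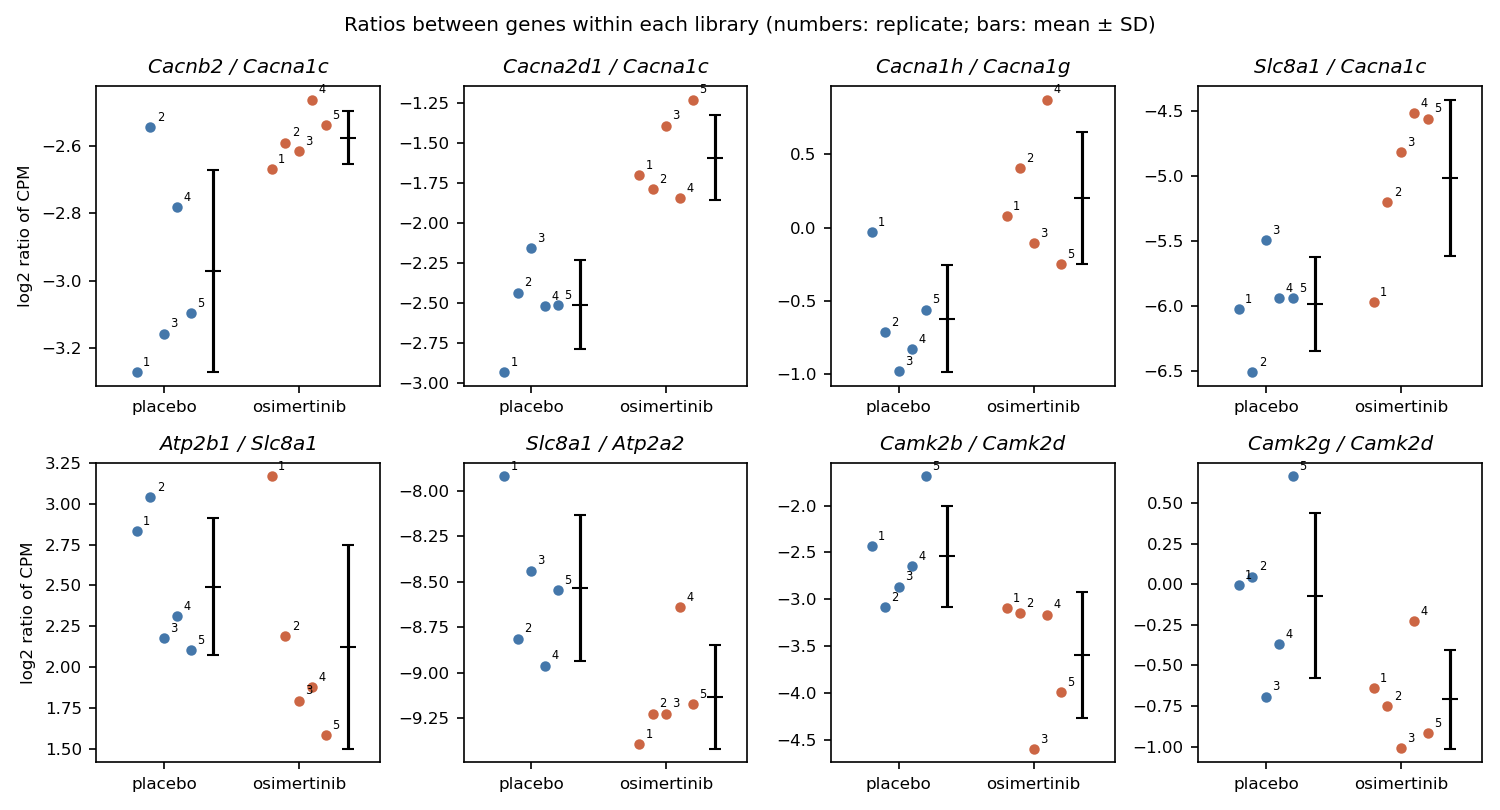
Log2 ratio of the CPM of 2 genes in each library for the 8 ratios tested, with replicate numbers beside the points and mean ± SD as bars. The groups lie apart for Cacna2d1 over Cacna1c (placebo at -2.16 or less, osimertinib at -1.85 or more) and for Camk2b over Camk2d (placebo at -3.08 or more, osimertinib at -3.09 or less).

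Promoter windows are shown for the 4 genes of the 2 ratios whose groups did not overlap, Cacna1c and Cacna2d1 here and Camk2b and Camk2d further on. Each runs from 250 bases before to 50 bases after a RefSeq start (GRCm38.p6), 5′ to 3′ on the gene's strand, with GC boxes (GGGCGG on either strand) in capitals. RefSeq windows were found for 7 of the 10 genes. Of the 3 windows of Cacna1c, the first lies at chr6:119196360-119196659 and the second at chr6:119108446-119108745, both on the minus strand. That of Cacna2d1 lies at chr5:15934441-15934740 on the plus strand.
Cacna1c first window: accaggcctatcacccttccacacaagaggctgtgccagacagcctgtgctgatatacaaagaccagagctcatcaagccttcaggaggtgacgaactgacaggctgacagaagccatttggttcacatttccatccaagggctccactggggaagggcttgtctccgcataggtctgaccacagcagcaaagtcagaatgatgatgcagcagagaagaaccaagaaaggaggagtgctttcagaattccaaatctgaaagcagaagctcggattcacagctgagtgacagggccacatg
Cacna1c second window: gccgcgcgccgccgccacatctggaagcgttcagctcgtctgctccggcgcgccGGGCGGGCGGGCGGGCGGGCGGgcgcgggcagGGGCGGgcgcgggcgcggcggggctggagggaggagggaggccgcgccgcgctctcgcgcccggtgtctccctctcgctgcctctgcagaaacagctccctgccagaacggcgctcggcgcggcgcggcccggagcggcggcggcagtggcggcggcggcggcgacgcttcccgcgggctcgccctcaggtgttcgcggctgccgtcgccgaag
Cacna2d1 window: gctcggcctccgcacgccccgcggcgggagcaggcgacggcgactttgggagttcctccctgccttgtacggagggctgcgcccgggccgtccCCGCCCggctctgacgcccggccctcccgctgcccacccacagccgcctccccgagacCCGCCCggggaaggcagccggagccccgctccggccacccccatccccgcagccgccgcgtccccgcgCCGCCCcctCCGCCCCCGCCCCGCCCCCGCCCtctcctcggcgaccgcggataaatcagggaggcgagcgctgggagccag
The first Cacna1c window had 51.3% G and C and no GC box, and the second had 81.3% and 6 GC boxes. The Cacna2d1 window had 80% and 7 GC boxes. A GC box was present in 35.7% of all 32851 windows searched. Neither a TATA box (TATAAA, in 13.6% of windows), a CCAAT box (CCAAT, 37.4%), an E-box (CACGTG, 7.15%), a GATA motif (AGATAA, 11.2%), an NFAT core (GGAAAA, 23.4%) nor a CRE core (TGACGT, 7.51%) was found on either strand of the 3 windows printed here. The third Cacna1c window, at chr6:118757925-118758224, had 51.3% G and C, no GC box and 1 CCAAT box. The table of gene totals does not say which start was used.

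The T-type genes did not pass, and both varied widely within each group. Cacna1g, coding for one T-type pore (chromosome 11, 94408391 to 94474198), was at 37.2, 27.4, 16.1, 26.3 and 68.5 rescaled CPM in placebo and at 39.8, 19.1, 8.82, 42.4 and 11.2 in osimertinib. The groups overlapped, with a log2 fold change of -0.62 ± 0.46 (limma adjusted p = 0.338). Cacna1h, coding for the other (chromosome 17, 25374285 to 25433783), was at 36.4, 16.7, 8.16, 14.8 and 46.5 in placebo and at 42.1, 25.2, 8.20, 77.6 and 9.40 in osimertinib. Here too the groups overlapped (0.18 ± 0.61, adjusted p = 0.854). The sign turned on leaving out placebo library 3 or either of osimertinib libraries 1 and 4.

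Cacna1h was lowest in the 4 libraries nearly free of Myl7, while Cacna1g reached 26.3 in those 4 and went down to 19.1 in the other 6. The mean log2(rescaled CPM + 0.5) of 7 atrial muscle genes was 6.35, 4.84, 2.48, 2.28 and 6.25 in placebo libraries 1 to 5 and 6.83, 6.85, 2.66, 8.41 and 2.53 in osimertinib libraries 1 to 5. The 7 are Nppa, Myl7, Myl4, Sln, Dkk3, Stard10 and Tbx5. Nppa was at 1081 and 490 rescaled CPM in placebo libraries 3 and 4 and at 1496 and 685 in osimertinib libraries 3 and 5. Its log2 fold change was 0.90 ± 0.31 (limma adjusted p = 0.0543). All 7 fold changes lay above 0 and none was called after rescaling. In the deposited CPM 4 were called higher (Nppa, Dkk3, Stard10 and Tbx5), beside 6.62% of all tested genes. The atrial levels of the groups overlapped, at 2.28 to 6.35 and 2.53 to 8.41. Myl7, Myl4 and Sln were high in the same libraries, so the shared sign is not 7 separate results. A group difference in the mean level was not tested. Cacna1h was at 14.8 or less in the 4 libraries with the lowest atrial level and at 16.7 or more in the other 6. In those 4, Cacna1g was at 16.1 and 26.3 in placebo libraries 3 and 4 and at 8.82 and 11.2 in osimertinib libraries 3 and 5. In a fit with the atrial level as a covariate, the log2 fold change of Cacna1g was -0.96 ± 0.23 (limma adjusted p = 0.00538) and that of Cacna1h was -0.31 ± 0.22 (adjusted p = 0.282), with the sign of the latter turned. That fit called 39.4% of all tested genes, 21.7% higher and 17.7% lower, and 6 of the 10, Cacna2d1 and Camk2d higher and Cacna1c, Cacna1g, Camk2b and Camk2g lower. Whether atrial transcripts mark the same tissue in both groups was not tested.

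Within libraries the ratio of Cacna1h to Cacna1g was higher in osimertinib, at a log2 ratio of 0.20 ± 0.45 (SD, n = 5) against -0.62 ± 0.36 (exact p = 0.0238, adjusted p = 0.0423). The groups overlapped, since placebo library 1 lay at -0.03, and the adjusted p passed in 1 of 10 tests without 1 library (up to 0.0847). Markers of the conduction system, another source of T-type channels, summed to 20.9 to 54.7 rescaled CPM in placebo and 13.5 to 53.9 in osimertinib. Of the 7, only Tbx3 and Cntn2 passed the filter on low values, and neither was called. Their part in the T-type values was not tested.

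**Figure D3:**
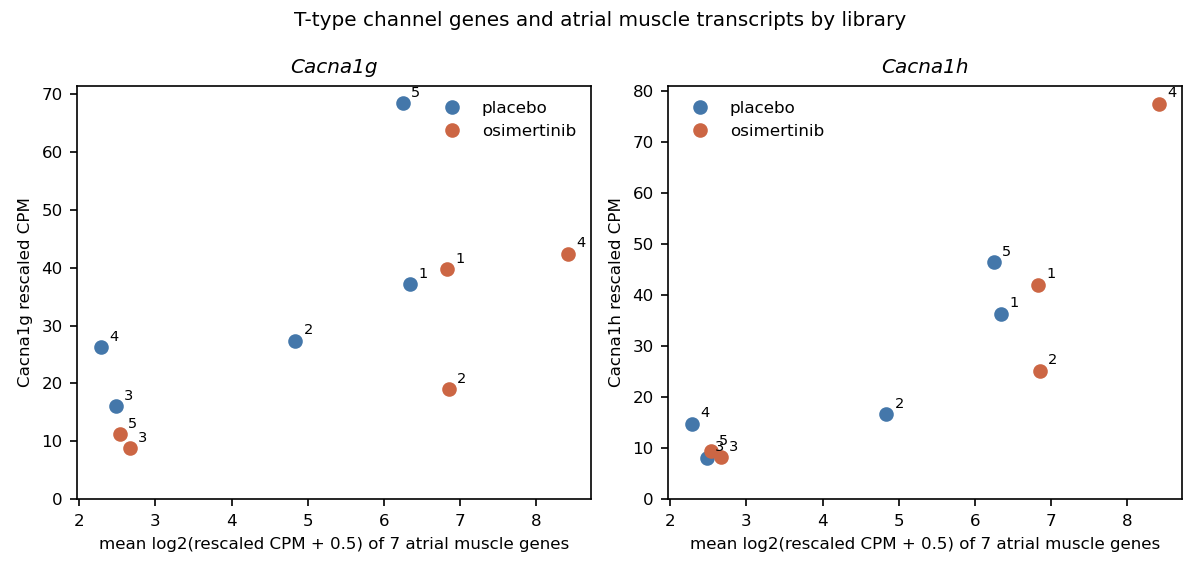
Rescaled CPM of Cacna1g and Cacna1h against the mean log2(rescaled CPM + 0.5) of 7 atrial muscle genes in each library, with replicate numbers. The 4 libraries with an atrial level of 2.66 or less all lie at 14.8 or under for Cacna1h, and osimertinib library 4, with the highest atrial level, has the highest Cacna1h at 77.6.

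Slc8a1, the sodium-calcium exchanger of heart muscle (chromosome 17, 81373105 to 81738377), was the scarcest of the 10 genes, with 23 to 107 estimated reads per library. Whether reads of its long transcript were all assigned to it cannot be seen in the table, so its level and its ratios hold only for the reads counted. It was at 2.66, 2.11, 3.8, 3.28 and 2.37 rescaled CPM in placebo and at 2.09, 3.75, 4.41, 5.36 and 5.03 in osimertinib. Osimertinib libraries 3, 4 and 5 lay above all placebo libraries and library 1 below them. The log2 fold change was 0.44 ± 0.23 (limma adjusted p = 0.173) and passed without osimertinib library 1 (0.63, adjusted p = 0.0304). Relative to Cacna1c it was higher in osimertinib, at a log2 ratio of -5.01 ± 0.60 (SD, n = 5) against -5.98 ± 0.36 (exact p = 0.0317, adjusted p = 0.0423). That call held in 1 of 10 tests without 1 library (adjusted p up to 0.0952).

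The exchanger was also set against Atp2a2, which encodes SERCA, the pump that returns calcium to the reticulum and competes with the exchanger during relaxation. Atp2a2 rose from 1087 ± 390 to 2267 ± 572 rescaled CPM (log2 fold change 1.09 ± 0.28, limma adjusted p = 0.0248). The log2 ratio of Slc8a1 to Atp2a2 was -7.92, -8.81, -8.44, -8.96 and -8.55 in placebo and -9.39, -9.23, -9.23, -8.64 and -9.18 in osimertinib. It was 1.51-fold lower in osimertinib (exact p = 0.0238, adjusted p = 0.0423), with osimertinib library 4 inside the placebo range, and passed in 2 of 10 tests without 1 library (adjusted p up to 0.0952).

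Atp2b1, the widely expressed plasma membrane calcium pump (chromosome 10, 98914406 to 99026143), was at 19.0, 17.4, 17.2, 16.3 and 10.2 rescaled CPM in placebo and at 18.8, 17.1, 15.3, 19.7 and 15.1 in osimertinib. Apart from the low placebo library 5 the values overlapped. Its log2 fold change was 0.12 ± 0.16 (limma adjusted p = 0.602), and -0.03 without placebo library 5. Its ratio to Slc8a1 did not pass (difference -0.37 on the log2 scale, exact p = 0.286, adjusted p = 0.286).

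Camk2d, the principal cardiac CaMKII gene (chromosome 3, 126596302 to 126846326), was at 35.3, 39.7, 49.1, 46.5 and 27.9 rescaled CPM in placebo and at 42.2, 52.5, 58.0, 42.2 and 48.1 in osimertinib. All 5 osimertinib libraries were above the placebo mean of 39.7, though the groups overlapped. Its fold change on the log2 scale was 0.31 ± 0.16 (limma adjusted p = 0.171). Camk2b and Camk2g lay on the opposite side of 0. Camk2a, a further CaMKII gene counted with the calmodulin genes below, lay on the same side as Camk2d and was not called. It was at 22.5 ± 8.52 rescaled CPM in placebo and 24.5 ± 2.29 in osimertinib, with overlap between the groups. Its log2 fold change was 0.19 ± 0.21 (limma adjusted p = 0.533).

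Camk2b, the form best known from neurons and skeletal muscle (chromosome 11, 5969644 to 6066362), had 50 to 140 estimated reads per library. It was at 6.54, 4.69, 6.74, 7.41 and 8.67 rescaled CPM in placebo and at 4.95, 5.93, 2.40, 4.71 and 3.03 in osimertinib. All osimertinib libraries were below the placebo mean of 6.81, and placebo library 2 lay among them. With a log2 fold change of -0.67 ± 0.22 (limma adjusted p = 0.0498) it passed at the edge of the threshold. The call was lost in 20 of 26 alternative fits, among them the deposited CPM (-0.41, adjusted p = 0.456) and 8 of 10 fits without 1 library, all but those without osimertinib library 1 or 2 (adjusted p up to 0.123). Of 8 neuron and Schwann cell markers, 3 passed the filter and none was called. Their summed level lay between 8.72 and 20.2 in placebo and between 6.18 and 18.6 in osimertinib, and their part in the Camk2b values was not tested.

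Camk2g, a broadly expressed form (chromosome 14, 20734875 to 20794088), was at 35.2, 41.0, 30.4, 36 and 44.2 rescaled CPM in placebo and at 27.1, 31.2, 28.9, 36.1 and 25.5 in osimertinib. All 5 osimertinib libraries were below the placebo mean, with libraries 2 and 4 inside the placebo range. The log2 fold change was -0.32 ± 0.13 (limma adjusted p = 0.0854), and it passed without placebo library 3 (0.0436) or osimertinib library 4 (0.0475). In the deposited CPM it was -0.04 ± 0.32.

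Within libraries, the balance of Camk2b and Camk2d differed between the groups. The log2 ratio of Camk2b to Camk2d was -2.43, -3.08, -2.87, -2.65 and -1.68 in placebo and -3.09, -3.15, -4.60, -3.16 and -3.99 in osimertinib. The groups did not overlap, although placebo library 2 and osimertinib library 1 almost met, and the ratio was 2.08-fold lower in osimertinib (exact p = 0.00794, adjusted p = 0.0317). Without 1 library the exact p rose to at most 0.0476 and the adjusted p passed in 4 of 10 tests. Without placebo library 5, which had the highest ratio, the difference moved from -1.06 to -0.84 (adjusted p = 0.0635). Between group medians it was -0.52 and did not pass (adjusted p = 0.0762). The ratio of Camk2g to Camk2d went from -0.07 ± 0.51 (SD, n = 5) to -0.71 ± 0.30 and did not pass after adjustment (exact p = 0.0476, adjusted p = 0.0544).

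The windows of these 2 kinase genes follow in the same form, that of Camk2d at chr3:126596701-126597000 on the plus strand and that of Camk2b at chr11:6065699-6065998 on the minus strand.
Camk2d window: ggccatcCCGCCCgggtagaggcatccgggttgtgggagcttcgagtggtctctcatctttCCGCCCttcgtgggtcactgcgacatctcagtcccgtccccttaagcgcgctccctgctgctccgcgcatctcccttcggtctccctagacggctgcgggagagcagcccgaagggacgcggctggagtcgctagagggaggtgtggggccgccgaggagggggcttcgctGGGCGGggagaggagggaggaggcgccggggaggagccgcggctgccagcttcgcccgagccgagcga
Camk2b window: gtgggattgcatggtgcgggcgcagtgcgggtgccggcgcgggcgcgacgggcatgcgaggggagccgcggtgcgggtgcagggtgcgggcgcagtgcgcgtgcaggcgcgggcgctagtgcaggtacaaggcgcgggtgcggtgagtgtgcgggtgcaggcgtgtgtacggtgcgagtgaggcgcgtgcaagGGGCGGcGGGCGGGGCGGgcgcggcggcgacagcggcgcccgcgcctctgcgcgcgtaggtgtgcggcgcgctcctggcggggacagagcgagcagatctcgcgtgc
Both were rich in G and C, at 70.3% and 77.3%, and each held 3 GC boxes and none of the other 6 motifs searched.

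**Figure D4:**
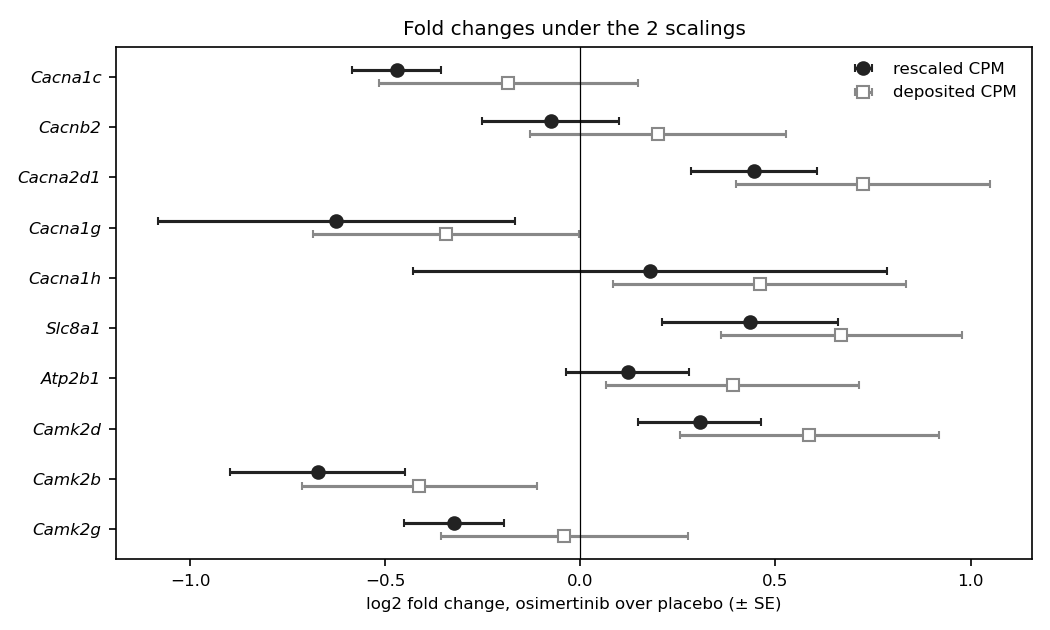
Log2 fold change of each gene, osimertinib over placebo, with the limma standard error as bars, for rescaled CPM (filled circles) and deposited CPM (open squares). Every gene lies further right in the deposited CPM, Cacna1c at -0.19 in place of -0.47 and Cacnb2 at 0.20 in place of -0.08.

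Levels of different genes were compared per kilobase of all annotated exons of the gene. Cacna1c was highest, at 8.34 rescaled CPM per kilobase in placebo (6.88 to 9.49) and 5.98 (5.59 to 6.51) in osimertinib. Camk2g followed at 5.84 and 4.65, then Cacna1g, Cacna2d1, Cacna1h, Camk2d and Cacnb2 between 3.46 and 1.76 in placebo. Atp2b1 stood at 1.05, Camk2b at 0.746 and Slc8a1 at 0.151. Neighbours in this order overlapped in placebo except at 2 steps, from Cacnb2 to Atp2b1 and from Camk2b to Slc8a1. The order in osimertinib was the same but for Cacna1g, which moved from the third place to the fifth, behind Cacna2d1 and Cacna1h. The length used matters most for Camk2d, whose exons together cover 22493 bases while its longest annotated transcript has 5524.

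Across the 10 libraries, likeness of pattern between genes was measured as the root mean square difference of log2 values centred on each gene's mean. This measure also depends on how much each gene varies. Cacna2d1 and Camk2d were closest (0.19), followed by Cacna1c and Camk2g (0.24) and by Cacna1c and Cacnb2 (0.27). Cacna2d1 and Cacna1h were farthest apart (1.3). Among all tested genes, those most like Cacna1c were Atp6v0a1 (0.08), Lrch1 (0.09) and ENSMUSG00000100370 (0.09), against a median of 0.38 over all genes. Those most like Camk2d were Iars1, Alg3 and Mgat5 (0.07 to 0.10), and those most like the scarcer Slc8a1 were Asb1, Pon3 and Alox5 (0.17 to 0.19).

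Of 90 other genes of sarcolemmal calcium handling, in 7 lists, 71 passed the filter on low values and 17 were called after rescaling, 12 higher and 5 lower, beside 10.4% and 10.5% of all tested genes. Of these 17, 8 were called in the deposited CPM too, where none was lower. The calls depended on single libraries: 4 (Rrad, Adrb1, Cacnb1 and Dysf) passed in all 10 fits without 1 library, while leaving out placebo library 2, osimertinib library 3 or osimertinib library 5 each lost 12. Leaving out placebo library 1 lost 10, osimertinib library 2 lost 5 and placebo library 5 lost 4.

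Among the other voltage-gated calcium channel genes, 8 of 17 were tested and 1 was called, Cacnb1, a further beta subunit gene. It was at 10.1, 10.5, 9.68, 9.63 and 11.4 rescaled CPM in placebo and at 7.57, 6.49, 6.61, 6.96 and 5.89 in osimertinib, with no overlap. The log2 fold change was -0.58 ± 0.10 (limma adjusted p = 0.0109). In the deposited CPM it was -0.32 (adjusted p = 0.591). The list median was -0.24.

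The L-type channel regulators had 3 of 11 tested genes higher and none lower, with a median of 0.20. Rrad, a small GTPase that binds the beta subunit and inhibits the channel, was at 59.3, 56.6, 66.6, 62.7 and 64.5 rescaled CPM in placebo and at 118, 94.5, 248, 112 and 220 in osimertinib. The placebo libraries were close together and every osimertinib library was above them. Its log2 fold change was 1.24 ± 0.24 (limma adjusted p = 0.0134) and 1.53 in the deposited CPM (adjusted p = 0.00396). Adrb1, the receptor through which noradrenaline drives the channel, rose from 1.86 ± 0.49 to 3.54 ± 0.66 rescaled CPM without overlap (0.78 ± 0.18, adjusted p = 0.0179). Prkaca, the catalytic subunit of protein kinase A, rose by 0.68 ± 0.18 (limma adjusted p = 0.0281), with overlap between the groups. It was not called in the deposited CPM (adjusted p = 0.0527) and was called in 6 of 10 fits without 1 library.

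Among the genes of calcium and sodium extrusion 7 of 11 were tested, 2 were higher and 1 was lower, with a median of 0.48. Atp1b1, a subunit gene of the sodium pump, which maintains the gradient that drives the exchanger, rose by 0.68 ± 0.19 (limma adjusted p = 0.032). It went from 43.4 ± 13.4 to 67.5 ± 7.66 rescaled CPM, with overlap between the groups. The calcium exchanger gene Slc8b1 and the calcium pump gene Atp2b4 did not pass, at -0.23 and -0.20.

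Of 20 genes for calmodulin, its kinases and calcineurin, 17 were tested, 3 were higher and 2 lower, with a median of 0.07. Rcan2, a regulator of calcineurin, rose from 53.7 ± 19.98 to 116 ± 31.8 rescaled CPM (1.14 ± 0.26, limma adjusted p = 0.0182). The calcineurin subunit genes Ppp3cc and Ppp3r1 rose by 0.59 ± 0.16 and 0.47 ± 0.13 without overlap between the groups. Nrgn, which binds calmodulin, fell by 1.00 ± 0.25 on the log2 scale (adjusted p = 0.0229) from 3.43 to 1.49 rescaled CPM. The CaMKII inhibitor gene Camk2n1 did not differ beyond its error, at 24.5 ± 3.14 and 24.7 ± 4.62 rescaled CPM.

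None of 11 tested genes of store-operated and Trp channels was called (median -0.15), and Stim2, a calcium sensor of the reticulum, came nearest at -0.35 ± 0.12 (limma adjusted p = 0.0554). Of 11 T-tubule and dyad genes, which hold the channel beside the ryanodine receptor, 3 were higher and 1 lower, with a median of 0.44. The caveolar genes Cav3 and Cavin4 and the junctophilin gene Jph1 rose by 0.92 ± 0.29, 1.11 ± 0.36 and 0.73 ± 0.22, and the membrane repair gene Dysf fell by 0.50 ± 0.11 on the log2 scale (adjusted p = 0.0163) without overlap. Of 6 regulators of Camk2d splicing 1 was called, Rbfox2, at 34.1 ± 4.43 and 44.1 ± 3.63 rescaled CPM (0.37 ± 0.11, adjusted p = 0.0378). It was called in 3 of 10 fits without 1 library, and the values per gene do not show isoforms.

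**Figure D5:**
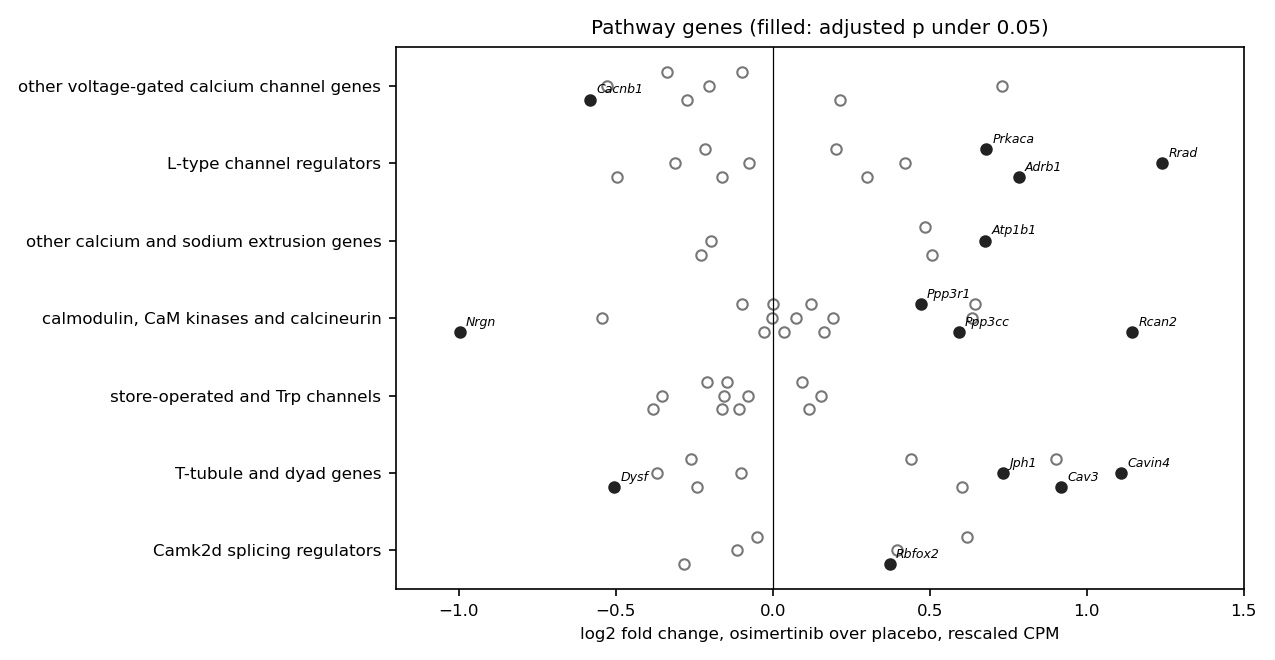
Log2 fold change after rescaling of the other tested genes of calcium handling at the cell membrane, one row per list, with called genes filled and named and genes not reported here left out. Rrad at 1.24 and Rcan2 at 1.14 lie furthest to the right and Nrgn furthest to the left.

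Markers of other cell types were followed as well. Beside the endothelial markers given with Cacna1c, 2 of 8 macrophage markers were called higher after rescaling (Lyz2 and Adgre1), against 10.4% of all tested genes. None of the 8 was called in the deposited CPM. Their summed levels were 158 to 226 rescaled CPM in placebo and 222 to 289 in osimertinib. After rescaling none of the 8 fibroblast markers was called (465 to 964 and 646 to 1330), nor any of the 7 atrial markers tested. Bmp10, listed with the atrial markers, was at 0 in every library. In the deposited CPM no fibroblast marker was called, while 4 of the 7 atrial markers were called higher, beside 6.62% of all tested genes. Of the skeletal muscle markers only Mb and Ckm, which heart muscle also expresses, passed the filter, and neither was called after rescaling. Both were called higher in the deposited CPM (limma adjusted p = 0.0135 and 0.0148). Myh4 and Myog were at 0 throughout. Endothelial cells express Atp2b1, and the part of these cells in the values of the 10 genes was not tested.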

How the data were processed

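The authors deposited CPM, one value per gene and library, scaled to each library's own total with no factor between libraries. By the series' design text, STAR alignment to GRCm38 and RSEM quantification were run in nf-core/rnaseq, with no versions stated. A different chain stands in the submitters' processing notes: hg38, a human build, with DESeq2, StringTie 1.3.4d, HISAT2 2.0.4 and cutadapt 1.9. Of the 45706 mouse gene identifiers, 98.8% matched GENCODE M21 (GRCm38), the source of coordinates, exon lengths and GC content.

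The CPM worth of 1 read gave the depth. Of a library's values above 0 and under 200 reads, 90.7% to 93.4% were whole reads (tolerance 0.01 read), and 100% were multiples of 0.01 read. A count model was not the main test because the deposited values are CPM. A floor of 3 reads is 0.141 to 0.189 CPM and covers counting error only. Among 45 pairs of libraries the lowest chi-square per degree of freedom was 22.7, so no library looked like a copy of another. A gene was tested where 5 or more libraries reached 1 CPM, with limma 3.58.1 (R 4.3.3), two-sided, with an intensity trend on log2(rescaled CPM + 0.5), which understates changes of low genes. On simulated data the fit called 81% of genes changed by 1 on the log2 scale. Ratios were tested in Python 3.11.15.

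The 10 genes, the lists, the markers, the ratios and the alternatives were chosen with earlier results of these data known. Named are all 10 genes, up to 4 called genes per list by lowest p (or the lowest p), Atp2a2 and the 3 genes nearest in pattern to Cacna1c, Slc8a1 and Camk2d. Slc8b1, Atp2b4, Camk2n1 and Camk2a were named outside this rule, and none of them was called. Some listed genes are counted but not reported by name here. Alternatives were other scalings, pseudocounts, filters and variance models, the replicate number as a block, an atrial covariate, a length and GC term, leaving out each library and, added after the data were examined, voom on estimated reads.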

Additional observations from a re-analysis of the deposited data

How the results depend on the processing

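Genes called over all tested genes numbered 2574 (1283 higher, 1291 lower). They numbered 833 in the deposited CPM (817 higher, 16 lower), 625 in CPM without mitochondrial and haemoglobin genes (513 higher, 112 lower), 875 in the deposited CPM without placebo library 5 (618 higher, 257 lower), 1263 with no filter and 4864 with the atrial covariate. Under the same 5 alternatives the calcium handling genes called, 17 in the main analysis, numbered 9, 6, 6, 6 and 31, and the called genes among the 10, 2 in the main analysis, numbered 0, 0, 0, 1 and 6. That last count was 1 with pseudocount 0.1, with no intensity trend, with array weights, with the length and GC correction, with or without the replicate block, and with voom, with or without the block. Leaving out each library gave 517 to 2789 genes called, 5 to 22 calcium handling genes and 0 to 3 of the 10. The lowest of these came without osimertinib library 3 (517 genes), and the count was also 700 without osimertinib library 5, 819 without placebo library 2 and 875 without placebo library 1. Cacna1c kept its direction in all 26 alternatives (-0.62 to -0.19) and its call in 20. Camk2b kept its direction in all 26 and its call in 6. Some directions turned. For Cacnb2 the log2 fold change was 0.20 in the deposited CPM and ranged from -0.17 to 0.0589 in fits without 1 library, with 0.0589 without placebo library 2 and 0.02 without placebo library 4. For Cacna1h it was -0.31 with the atrial covariate and ranged from -0.25 to 0.54, with -0.25 without osimertinib library 4, -0.14 without placebo library 3 and -0.03 without osimertinib library 1. For Atp2b1 it ranged from -0.0254 without placebo library 5 to 0.188. The cause of these changes was not tested.

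Comparing group medians in place of means, 6 ratios no longer passed: Cacnb2 to Cacna1c (0.51), Cacna2d1 to Cacna1c (0.82), Cacna1h to Cacna1g (0.79), Slc8a1 to Cacna1c (1.12), Slc8a1 to Atp2a2 (-0.68) and Camk2b to Camk2d (-0.52). Without 1 library these differences ranged, in that order, from 0.32 to 0.50, from 0.82 to 1.01, from 0.65 to 0.97, from 0.84 to 1.21, from -0.72 to -0.44 and from -1.19 to -0.81, with fewer assignments to permute. Their directions held in all of these, and adding 0.1 CPM changed no call. Samples with the same replicate number correlated at 0.43, 0.24, 0.46, -0.34 and -0.16 in their deviations, and not every sample matched its own number best. Whether samples of the same number share more than the number cannot be told from these values. With the replicate block 2949 genes were called, 19 of the calcium handling genes and 1 of the 10, Cacna1c (adjusted p = 0.0219), with Camk2b at an adjusted p of 0.0773. Depth limits Slc8a1 (23 to 107 reads) and Camk2b (50 to 140 reads) most.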
